A study of Mus musculus with 2 samples.

Results

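Fragments of the 2 ribosomal RNAs and 13 messenger RNAs that the mouse mitochondrial genome encodes were examined in small RNA libraries from a nuclear and a cytoplasmic fraction of dendritic cells. A fragment was a listed sequence of 18 nt or more that matched mt-Rnr1, mt-Rnr2 or 1 of the 13 mRNAs of GENCODE vM21 over its full length on the sense strand and matched no mitochondrial tRNA. This rule used no measured value and took 2713 of 538100 distinct sequences. They held 4272 of 2000019 nuclear reads (0.214%) and 5477 of 2041383 cytoplasmic reads (0.268%). When the genes were read backwards, 0 sequences matched, so chance matches were below detection. This control cannot detect matches to copies of these genes in the nuclear genome, which are described below.

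Both libraries came from bone marrow-derived dendritic cells of C57BL/6 mice, sentinel cells of innate immunity. Marrow cells were cultured with GM-CSF and IL-4 for 7 days and then received LPS, a lipid-linked sugar from the surface of Gram-negative bacteria. For fractionation, swelling and mild NP40 detergent opened the cells before a spin, and RNA of the pellet with the nuclei (nuclear library) and of the cytoplasmic fraction (cytoplasmic library) was purified separately. Nothing but the fraction distinguished the groups, no unstimulated cells were analysed here, and the sources used here do not give dose, duration, age or pooling of mice. Each group had 1 library, so no difference has a replicate check, no p-value is given, and the ratios compare these 2 libraries. Intervals are exact at the 95% level and cover counting error alone, because without molecular identifiers PCR copies are not independent molecules.

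Mitochondrial DNA is transcribed from both strands into long precursors, and excision of the tRNAs that lie between most genes releases the rRNAs and mRNAs. The 2 rRNAs build the small and the large subunit of the mitochondrial ribosome, and the mRNAs encode core subunits of the respiratory chain and of ATP synthase. All of these genes lie in the same direction (here called heavy-strand genes, after their template) except mt-Nd6, which is read from the other strand. Mitochondria lie outside the nucleus, and the nuclear genome carries inserted copies of mitochondrial DNA.

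The sequences below carry the main patterns. In mt-Rnr1 (GRCm38 chrM:70-1024, plus strand), the small-subunit rRNA, fragments gathered at 2 stretches. The 4 shown from the first stretch share a first base at position 516 of the gene, and capitals mark the 18 bases of positions 516 to 533.
mt-Rnr1 516-533, chrM:585-602: AAAGGACTTGGCGGTACT
mt-Rnr1 516-535, chrM:585-604: AAAGGACTTGGCGGTACTtt
mt-Rnr1 516-536, chrM:585-605: AAAGGACTTGGCGGTACTtta
mt-Rnr1 516-537, chrM:585-606: AAAGGACTTGGCGGTACTttat
The 4 shown from the other stretch end at base 691 or 692 and differ at the first base, and capitals mark positions 674 to 691, which they have in common.
mt-Rnr1 671-692, chrM:740-761: aaaAACGTTAGGTCAAGGTGTa
mt-Rnr1 672-691, chrM:741-760: aaAACGTTAGGTCAAGGTGT
mt-Rnr1 673-692, chrM:742-761: aAACGTTAGGTCAAGGTGTa
mt-Rnr1 674-692, chrM:743-761: AACGTTAGGTCAAGGTGTa
In mt-Rnr2 (chrM:1094-2675, plus strand), the large-subunit rRNA, the most abundant fragment, a fragment at the 5′ end of the gene and 2 fragments that lay far apart in their ratio are shown without capitals.
mt-Rnr2 1373-1390, chrM:2466-2483: tattaatggttcgtttgt
mt-Rnr2 1-23, chrM:1094-1116: actaatcctagccctagccctac
mt-Rnr2 1057-1079, chrM:2150-2172: taagacgagaagaccctatggag
mt-Rnr2 716-733, chrM:1809-1826: agactataggcaataatc
For the mRNAs, the fragment at the start codon of mt-Co3 (ATG in capitals), the leading cytoplasmic fragment of mt-Co1 and the most abundant fragment of mt-Nd6 are shown. The last of these was chosen after its values were seen.
mt-Co3 1-20, chrM:8607-8626, plus strand: ATGacccaccaaactcatgc
mt-Co1 412-436, chrM:5739-5763, plus strand: catgcaggagcatcagtagacctaa
mt-Nd6 350-372, chrM:13699-13721, minus strand: ttgatggtttgggagattggttg

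Markers of the fractions and of the cell type were as follows. Of 120 snoRNA entries with at least 50 reads, 119 were higher in the nuclear library, as were the nuclear long RNAs Malat1, Neat1 and Xist. All 11 dendritic cell markers had reads, 686 nuclear and 642 cytoplasmic in sum, and they included Itgax, Cd74 and the class II genes H2-Aa, H2-Ab1 and H2-Eb1. Of other cell types, 5 of 7 macrophage markers (125 nuclear and 452 cytoplasmic reads, mostly Lyz2) and 6 of 7 neutrophil markers (8 and 12 reads) had reads, 1 of 5 lymphoid markers had 1 nuclear read, and all 4 erythroid markers were at 0. Their part in the mitochondrial values was not tested. In such bulk libraries, fewer cells of a type, fewer mitochondria in a fraction and less RNA in each cannot be told apart.

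The ribosomal RNAs gave most of the fragments, at similar levels in both libraries by the deposited values. mt-Rnr1 had 1551 nuclear and 1970 cytoplasmic reads in 537 sequences, and mt-Rnr2 had 1771 and 1928 reads in 985 sequences. Per length of gene, mt-Rnr1 reached 812 RPM (the deposited unit, in which both libraries have the same total) per kb in the nuclear and 1010.5 in the cytoplasmic library, above mt-Rnr2 at 560 and 597 RPM per kb. mt-Rnr1 had a 1.24-fold cytoplasmic excess (1.16 to 1.33), short of a 2-fold difference, while the ratio of nuclear to cytoplasmic RPM of mt-Rnr2 was 0.938 with an interval that held 1 (0.878 to 1.001). Both rRNAs together had a ratio of 0.870 (0.830 to 0.911). This became 0.541 with TMM scaling and 0.496 with median-of-ratios scaling, and it turned to 1.63 under scaling to the reads of miRNA hairpins. Both its size and its direction thus depend on the scaling.

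**Figure D1:**
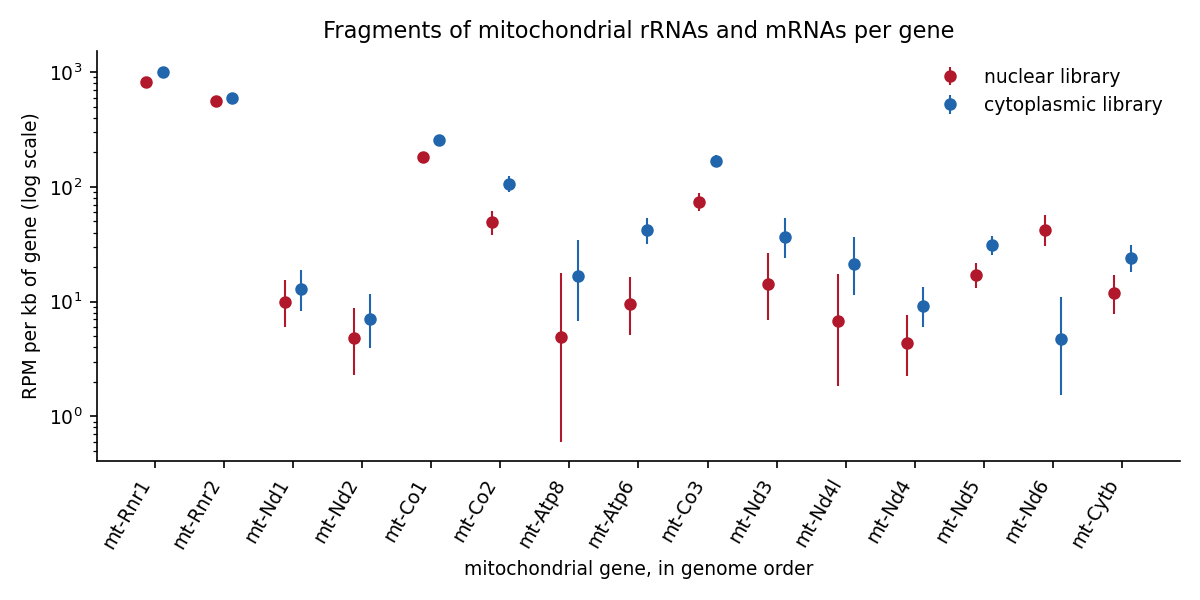
Level of fragments of each mitochondrial gene in RPM per kb of gene (log scale), with the genes in genome order on the horizontal axis, for the nuclear (red) and the cytoplasmic library (blue). Points are the 1 library of each group and bars exact 95% counting intervals; mt-Rnr1, mt-Rnr2 and mt-Co1 stood highest in both libraries, and mt-Nd6 lay higher in the nuclear library.

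Within mt-Rnr1 the libraries differed in which bases began the fragments. Fragments that start at base 516 had 138 nuclear reads, 8.90% of the gene's nuclear reads, and 742 cytoplasmic reads, 37.7% of its cytoplasmic reads. This single start thus had a 5.27-fold cytoplasmic excess (4.39 to 6.36). By RPM, other starts from base 506 to 520 went the other way, with 309 nuclear and 196 cytoplasmic reads and a ratio of 1.61 (1.34 to 1.93). Without the fragments that start at base 516, mt-Rnr1 kept 1413 nuclear and 1228 cytoplasmic reads. The ratio was then 1.17 (1.09 to 1.27), opposite in direction to the value for the whole gene. By RPM, the only scaling used for this value, the cytoplasmic lean of mt-Rnr1 was thus absent without this start. The start held the most cytoplasmic reads of the gene and was chosen for description after its values were seen. Its removal therefore had to raise the ratio, and starts with a nuclear excess were not removed for comparison.

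At the other stretch, bases 669 to 722, the gene had 779 nuclear and 693 cytoplasmic reads, and again neighbouring starts differed. Starts at bases 672 to 674 had 481 nuclear and 199 cytoplasmic reads, a ratio of 2.47 (2.09 to 2.93). Starts at bases 669 to 671 had 127 and 288 reads, a ratio of 0.450 (0.362 to 0.556), although start 670 among them had 11 and 4. Both groups were formed after the values were seen, which their intervals do not take into account. The fragment 671-692 had 56 nuclear and 152 cytoplasmic reads, whereas the fragment 673-692, which is shorter by its first bases only, had 115 and 42. The commonest last bases of the stretch, 692 and 691, differed less. Fragments that end at base 692, the most common end in both libraries, had 377 nuclear and 347 cytoplasmic reads, a ratio of 1.11 with an interval that held 1 (0.956 to 1.29). Those that end at base 691 had 197 and 130 reads, a ratio of 1.55 (1.23 to 1.95), and the 2 intervals overlapped. Fragments that end at base 721 had 9 and 32 reads, a ratio of 0.287 (0.121 to 0.615). No fragment exceeded 28 nt, so these lay further along and were not end variants of those that start at bases 669 to 674.

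**Figure D2:**
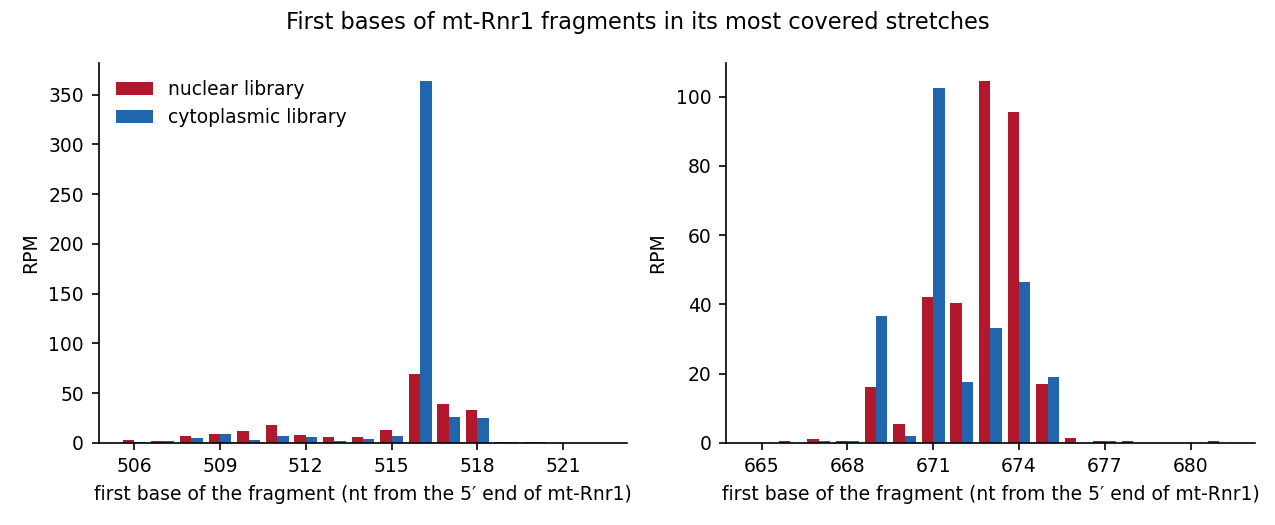
Level in RPM of mt-Rnr1 fragments by their first base, counted from the 5′ end of the gene, at its most covered stretches, for the nuclear (red) and cytoplasmic (blue) library. Start 516 stood at 69.0 nuclear and 363 cytoplasmic RPM, and starts 672 to 674 were higher in the nuclear library while starts 669 and 671 were higher in the cytoplasmic library.

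mt-Rnr2 fragments lay in more stretches, but the gene is also longer, at 1582 nt against 955 nt for mt-Rnr1. Stretches of at least 10 bases covered by at least 20 reads numbered 17 and took 36.0% of the gene's length and 94.97% of its reads, against 13 stretches, 33.6% and 96.8% in mt-Rnr1. The stretch of bases 1323 to 1394 had 313 nuclear and 326 cytoplasmic reads, led by the 18-nt fragment 1373-1390 with 157 and 181 reads, the most abundant of the gene in both libraries. The stretch of bases 1033 to 1083 had 278 and 287 reads, and its ratio of 0.989 also had an interval that held 1 (0.835 to 1.17). Other stretches lay apart between the libraries. Bases 439 to 465 had 87 nuclear and 17 cytoplasmic reads, a ratio of 5.22 (3.08 to 9.37), and bases 895 to 930 had 126 and 60 reads, a ratio of 2.14 (1.56 to 2.97). Bases 1246 to 1273 had 88 and 242 reads, a 2.69-fold excess of cytoplasmic RPM (2.10 to 3.48), mainly through fragments that start at base 1252, with 15 and 139 reads. Single sequences reached further apart, with 22 nuclear and 3 cytoplasmic reads for 1057-1079 (7.49-fold, 2.25 to 39.1) and 0 and 24 reads for 716-733.

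The 5′ end of mt-Rnr2 was itself a place of many fragments. Fragments that start in its first 5 bases made up 9.88% of the gene's nuclear reads (175 reads, 8.53 to 11.4%) and 8.402% of its cytoplasmic reads (162 reads, 7.20 to 9.73%), against 0.319% for an even spread of starts. mt-Rnr1 had 40 nuclear and 26 cytoplasmic reads there, 2.58% and 1.32%. At the 3′ end, fragments that end in the last 5 bases had 2 nuclear reads and 1 cytoplasmic read in mt-Rnr2, 0.113% and 0.0519%, below the even share of 0.319% in the cytoplasmic library. In mt-Rnr1 they had 6 and 15 reads, 0.387% (0.142 to 0.840%) and 0.761% (0.427 to 1.25%), with intervals that held the even share of 0.533%. Both rRNAs thus had more fragments at the 5′ end than an even spread, with the larger share in mt-Rnr2. By RPM the stretch of bases 1 to 25 of mt-Rnr2 stood at similar levels in both libraries, with a ratio of 1.10 (0.885 to 1.37). Its fragment 1-23, picked for a large ratio, had 31 nuclear and 10 cytoplasmic reads, a ratio of 3.16 (1.51 to 7.24).

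**Figure D3:**
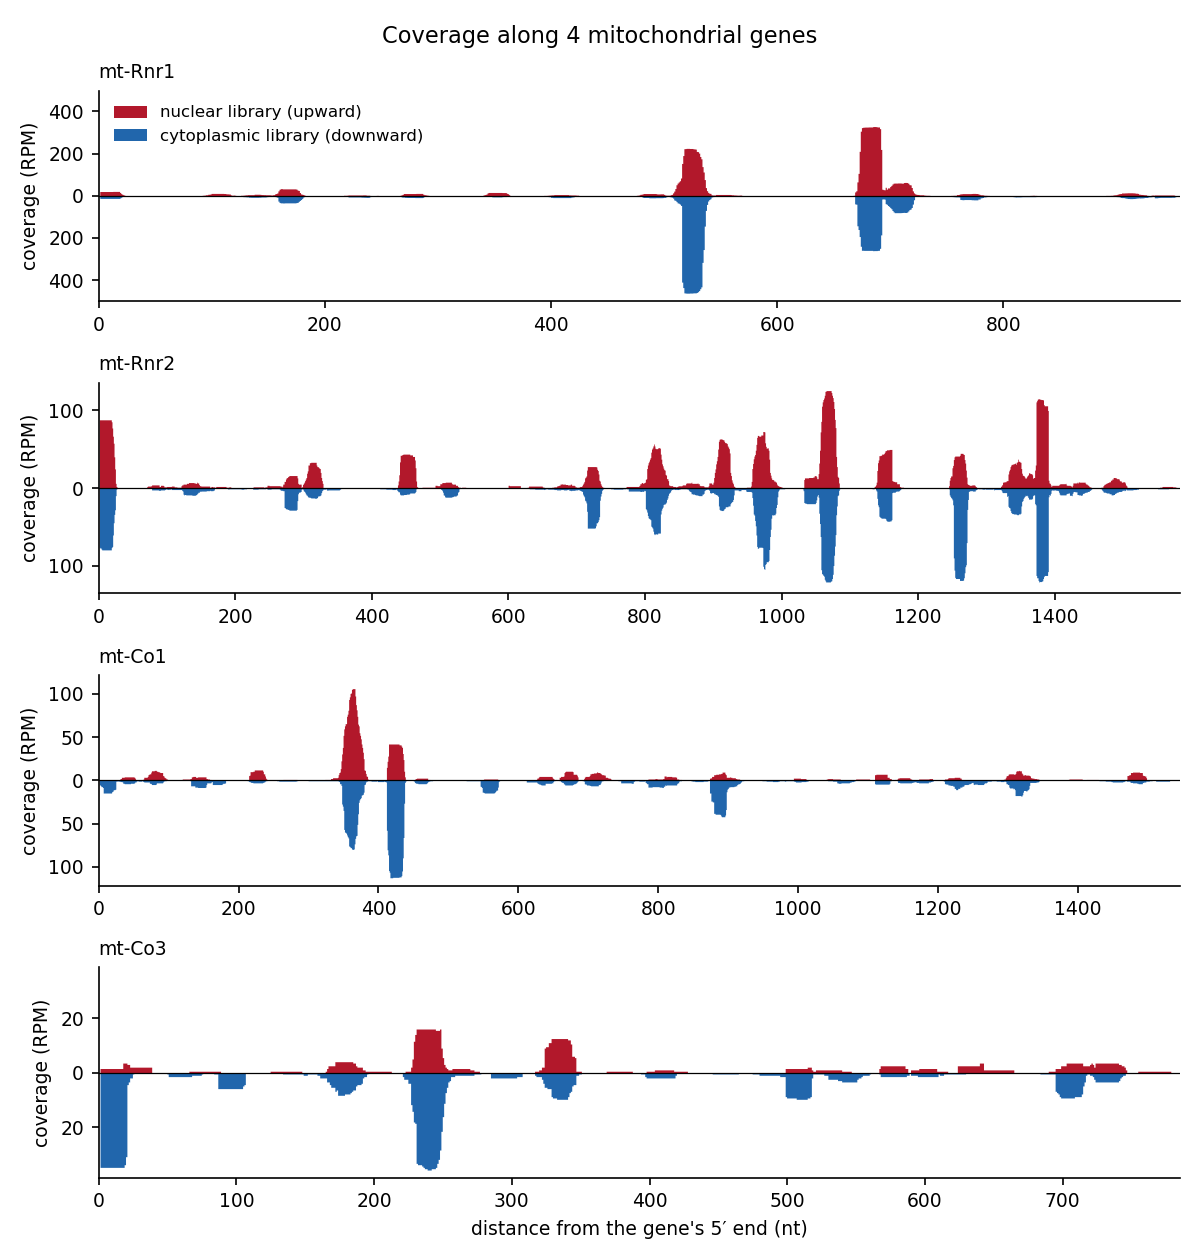
Coverage in RPM along mt-Rnr1, mt-Rnr2, mt-Co1 and mt-Co3, by distance from the 5′ end of each gene in nt, with the nuclear library upward (red) and the cytoplasmic library downward (blue); each panel has its own scale. Reads gathered in narrow stretches. Most of these held reads of both libraries at different heights, but some had few or no nuclear reads. The 5′ end of mt-Co3 was covered by 71 cytoplasmic and 3 nuclear reads, and bases 7 to 24 of mt-Co1 by 30 and 0.

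The mRNAs had 950 nuclear and 1579 cytoplasmic reads in 1191 sequences, a ratio of 0.614 (0.566 to 0.666), or a 1.63-fold cytoplasmic excess. Under scaling to the miRNA reads the ratio was 1.15, so this direction too depends on the scaling. Of the 15 genes, 8 reached 50 reads over both libraries. A gene was called where its level differed 2-fold (pseudocount of 0.5 reads) and the interval excluded 1. By this rule 4 of the 8 were lower in the nuclear library and 0 were higher (1 lower under scaling to the miRNA reads, 7 under the median of ratios, and 2 without the most abundant sequence of each gene), while among 931 gene entries of all kinds with at least 50 reads 8.59% were lower and 45.8% were higher. The median log2 ratio of the 8 genes was -0.93, against 0.83 for all entries. The 4 genes were mt-Co2, mt-Co3, mt-Atp6 and mt-Cytb, and the 4 without a call were mt-Rnr1, mt-Rnr2, mt-Co1 and mt-Nd5. Scaled to the miRNA reads, mt-Co2 (0.860), mt-Co3 (0.819) and mt-Cytb (0.922) lost their call. The ratios of mt-Rnr1 (1.51), mt-Rnr2 (1.76), mt-Co1 (1.33) and mt-Nd5 (1.03) then lay above 1.

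Complex IV, cytochrome c oxidase, supplied most mRNA fragments, with 747 nuclear and 1233 cytoplasmic reads over mt-Co1, mt-Co2 and mt-Co3. mt-Co1 (chrM:5328-6872), the catalytic subunit, had 564 and 813 reads, or 183 and 258 RPM per kb, and a ratio of 0.708 (0.635 to 0.789). mt-Co2 (chrM:7013-7696), which takes electrons from cytochrome c, had 67 and 149 reads, a 2.18-fold cytoplasmic excess (1.62 to 2.95). mt-Co3 (chrM:8607-9390) had 116 and 271 reads, a 2.29-fold cytoplasmic excess (1.83 to 2.87). Without its most abundant fragment, 1-20, the ratio of mt-Co3 was 0.541 (0.428 to 0.681), which ended its call. Per length the 3 genes ranked in the order mt-Co1, mt-Co3, mt-Co2 in both libraries, and only in the nuclear library did the intervals of mt-Co3 (61.1 to 88.7 RPM per kb) and mt-Co2 (37.96 to 62.2) overlap.

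Like the rRNAs, mt-Co1 had neighbouring stretches of opposite lean by RPM. Another scaling multiplies all ratios alike, so the side of 1 on which a stretch lies can change, but not the order of the stretches. Bases 344 to 382 had 215 nuclear and 163 cytoplasmic reads, a ratio of 1.35 (1.09 to 1.66), and bases 412 to 437 had 84 and 229 reads, a 2.67-fold cytoplasmic excess (2.07 to 3.47). The leading cytoplasmic fragment, 412-436, had 6 and 44 reads. No fragment of the gene had more nuclear reads than 415-436, with 13 and 13. Further along, bases 874 to 910 had 20 and 94 reads, and bases 217 to 235 had 24 and 6. The gene's overall ratio therefore averaged stretches that differed in direction by RPM.

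ATP synthase fragments were scarcer and mostly cytoplasmic. mt-Atp6 (chrM:7927-8607), a part of the proton channel, had 13 nuclear and 58 cytoplasmic reads, a 4.37-fold cytoplasmic excess (2.37 to 8.70), of which 1 and 23 lay at bases 322 to 339. mt-Atp8 (chrM:7766-7969), an accessory subunit, had 2 and 7 reads. In complex III, mt-Cytb (chrM:14145-15288), which carries electrons from ubiquinol, had 27 and 56 reads, a 2.03-fold cytoplasmic excess (1.26 to 3.35), and 1 and 23 of them lay at bases 627 to 648. A single stretch thus held 39.7% of the cytoplasmic reads of mt-Atp6 and 41.1% of those of mt-Cytb.

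Complex I, the entry point of electrons from NADH, has 7 mitochondrial subunits, and all had fragments. mt-Nd5 (chrM:11742-13565) had 62 nuclear and 115 cytoplasmic reads, a 1.82-fold cytoplasmic excess (1.32 to 2.52), below the 2-fold threshold. Its stretches also parted, with 31 and 15 reads at bases 424 to 446 and 6 and 40 reads at bases 464 to 484. The other heavy-strand members stayed under 50 reads: 19 and 25 for mt-Nd1, 10 and 15 for mt-Nd2, 10 and 26 for mt-Nd3, 12 and 26 for mt-Nd4, and 4 and 13 for mt-Nd4l. Each had fewer nuclear than cytoplasmic reads, and the intervals of mt-Nd1, mt-Nd2 and mt-Nd4l held a ratio of 1. In the cytoplasmic library the RPM per kb of the mRNAs below mt-Co2 ran from 41.7 in mt-Atp6 to 4.72 in mt-Nd6, and each gene's counting interval overlapped that of its neighbour in this order.

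mt-Nd6, the complex I subunit read from the other strand, was the only mitochondrial gene of the 15 with more nuclear than cytoplasmic reads. It had 44 nuclear and 5 cytoplasmic reads, a ratio of 8.98 (3.57 to 29.0), just under the minimum of 50 reads and therefore outside the count of called genes. Its ratio was 5.59 with TMM scaling, 5.12 with median-of-ratios scaling and 16.8 when scaled by miRNA reads. Its distinct sequences, 27 nuclear and 5 cytoplasmic, were also taken as shares of the 400087 and 169208 distinct sequences of the libraries. The ratio of these shares was 2.28 (0.867 to 7.59), on another scale than RPM. With 26 nt or more the ratio by RPM was 3.06 (0.246 to 161), and both intervals held 1. The reads lay in 31 sequences over 51.1% of the gene, and the most abundant of them, 350-372, had 5 nuclear reads and 0 cytoplasmic reads. Among the mRNAs mt-Nd6 also stood apart in base composition, with 28.1% G and 43.7% T, against 5.88% to 16.1% G in the other 12.

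**Figure D4:**
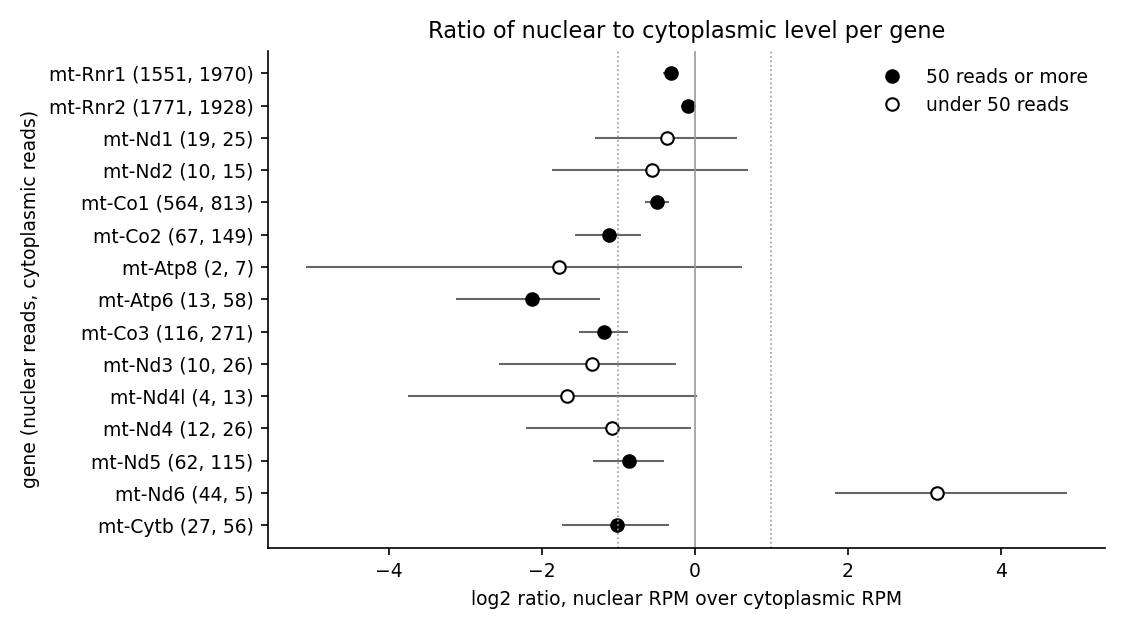
Log2 ratio of nuclear to cytoplasmic RPM for each gene (horizontal axis), with exact 95% counting intervals and the nuclear and cytoplasmic reads beside each name; filled points have 50 reads or more, and dotted lines mark 2-fold. Every point but that of mt-Nd6 lay left of 0, and mt-Atp6 lay furthest left among genes with 50 reads or more.

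Fragments at the annotated starts of the mRNA genes were mostly cytoplasmic. Fragments that start in the first 5 bases of an annotated mRNA gene had 11 nuclear reads, 1.16% of the mRNA reads (0.579 to 2.06%). In the cytoplasmic library they had 117 reads, 7.41% (6.17 to 8.81%). Most came from mt-Co3, with 3 and 71 reads, and the fragment 1-20 alone had 1 and 54 reads, a 52.9-fold cytoplasmic excess with a wide interval (9.10 to 2128). Without mt-Co3 the shares were 0.959% (8 reads, 0.415 to 1.88%) and 3.52% (46 reads, 2.59 to 4.66%), so the difference was smaller but the intervals stayed apart. mt-Co1 contributed 0 and 15 reads, mt-Co2 2 and 14, mt-Nd2 0 and 6, mt-Atp8 2 and 5, and mt-Nd3 0 and 4. The other genes with such reads did not lean that way, with 2 and 2 in mt-Nd4l, 1 and 0 in mt-Cytb, and 1 and 0 in mt-Nd6. mRNA fragments that start further in had a ratio of 0.656 (0.603 to 0.712). At the other end, 0 of 2529 reads ended in the last 5 bases of an annotated mRNA gene, which allows a share of up to 0.146%. The annotated spans of mt-Atp8 and mt-Atp6 overlap, as do those of mt-Nd4l and mt-Nd4. An annotated end is therefore not always the end of an RNA.

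Single sequences showed both directions. Of 55 fragments with at least 20 reads, 10 had a higher nuclear and 23 a lower nuclear level by the same rule, and 22 had no call, while among all 8447 sequences with at least 20 reads 44.0% were higher and 23.2% lower. The 10 higher ones belonged to mt-Rnr1 (7 of its 24) and mt-Rnr2 (3 of its 23). All 7 such fragments of mt-Co1 had either no call or a lower level in the nuclear library, with 5 lower, and the median log2 ratio of the 55 was -0.69, against 0.51 for all. Most fragments were rare: 1513 of the 2713 had 1 read in all, and 548 were in both libraries.

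Inserted copies in the nuclear genome limit what some genes can show. Of the fragments, 921 (33.9%) also matched at least 1 of 20 other annotated genes, 19 of them pseudogenes. All fragments of mt-Co2, mt-Co3, mt-Atp6 and mt-Nd4l were shared in this way, mainly with a block of pseudogenes on chromosome 1 such as Gm28437 (chr1:24613189-24613971, minus strand), which holds mt-Co3. For mt-Co1, 84.1% of reads were shared, mostly with Gm13340 (chr2:22588103-22589647, minus strand), against 4.79% for mt-Rnr2, 24.9% for mt-Nd5, 8.43% for mt-Cytb, 8.16% for mt-Nd6 and 0 for mt-Rnr1. The unshared fragments of mt-Co1 had 93 nuclear and 126 cytoplasmic reads and a ratio of 0.753 (0.570 to 0.993), close to the 0.700 of the shared ones (0.621 to 0.788). With unshared fragments alone, 5 genes reached 50 reads and 0 of them were called, so the calls of mt-Co2, mt-Co3 and mt-Atp6 rest on sequences that the nuclear copies also hold. mt-Cytb lay at the threshold, and its ratio of 0.492 became 0.5003 without the shared fragments, which ended its call. Without its most abundant fragment the ratio was 0.562, again with no call.

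Mitochondrial fragments did not share the length profile of the libraries. Among all listed reads 27.6% of nuclear and 38.8% of cytoplasmic reads were 22 nt long, the length of most miRNAs. For the rRNAs the commonest length was the shortest listed, 18 nt, at 18.03% and 20.8%, and 22 nt took 12.6% and 13.2%. The mRNA fragments were longer, with 51.5% and 48.3% of reads at 22 nt or more against 37.2% and 33.6% of rRNA reads. No fragment exceeded 28 nt. Sequences of up to 39 nt were listed, but reads above 28 nt were rare in both libraries. The commonest such length, 37 nt, held 0.0345% of all nuclear and 0.0584% of all cytoplasmic reads. The list starts at 18 nt, so shorter fragments were not measured and the peak of the rRNA lengths was not seen.

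**Figure D5:**
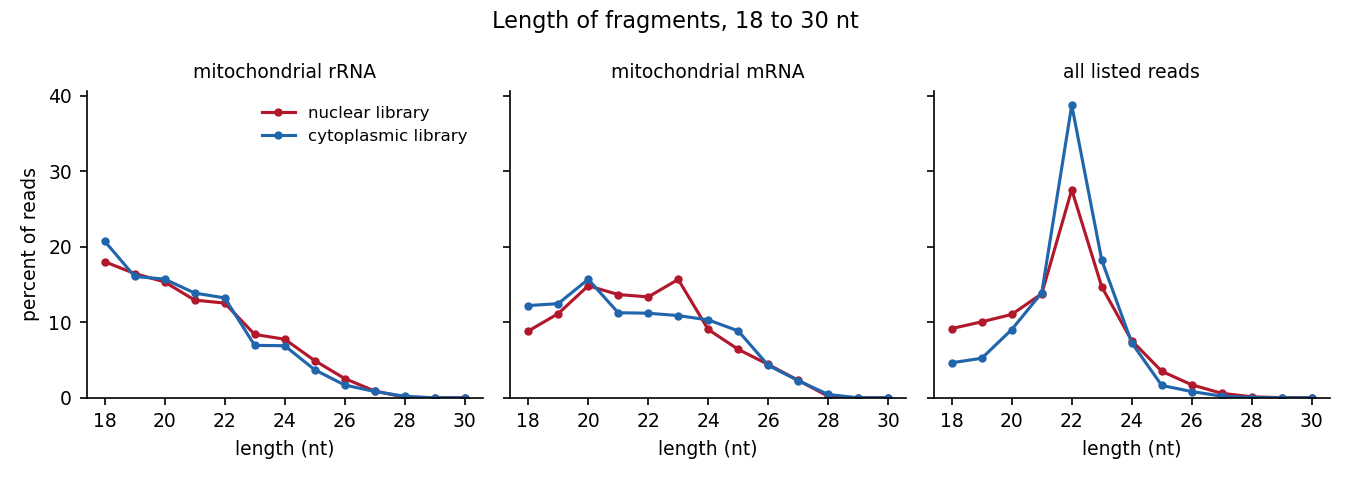
Percent of reads by length from 18 to 30 nt for mitochondrial rRNA fragments, mitochondrial mRNA fragments and all listed reads, in the nuclear (red) and cytoplasmic (blue) library. All listed reads peaked at 22 nt, whereas rRNA fragments fell from 18 nt on and mRNA fragments were most often 23 nt in the nuclear and 20 nt in the cytoplasmic library.

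First bases also differed from those of the libraries, and between the mRNA fragments of both fractions. A was the first base in 66.1% of nuclear and 73.7% of cytoplasmic rRNA reads and in 40.5% and 61.8% of mRNA reads, against 21.2% and 21.5% of all listed reads. The rRNA genes themselves hold 37.8% and 38.2% A. G made up 26.5% and 26.4% of the bases in rRNA reads, against 16.1% and 16.2% in mt-Rnr1 and mt-Rnr2 themselves, so the abundant fragments came from stretches richer in G than the genes as a whole. These shares are weighted by reads, and the few abundant starts of mt-Rnr1 weigh on them.

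For comparison, mitochondrial tRNA fragments had 1203 nuclear and 3173 cytoplasmic reads, a ratio of 0.387 (0.362 to 0.414), lower than the ratios of the rRNAs and of the mRNAs. Nuclear-encoded partners of the same complexes gave few fragments. Of 87 nuclear genes of respiratory chain and ATP synthase subunits 77 had reads, 434 nuclear and 359 cytoplasmic, a ratio of 1.23 (1.07 to 1.42). Atp5a1 (31 and 20 reads) and Atp5b (36 and 32), subunits of the catalytic part of ATP synthase, were the 2 that reached 50 reads, and 0 of 2 were called. Mitochondrial ribosomal protein genes, 63 of 78 with reads, had 196 and 73 (2.74, 2.08 to 3.64), and genes of mitochondrial transcription and RNA processing, 21 of 25 with reads, had 75 and 30 (2.55, 1.65 to 4.04), with none at 50 reads. These ratios are by RPM, in which the median log2 ratio of all entries was 0.83, and the side of 1 on which they lie depends on the scaling.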

How the data were processed

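The authors deposited 1 table of distinct sequences whose 2 value columns are in RPM, so both libraries have the same total. CASAVA and build mm10 are named in the submitters' processing notes, and the sources used here do not give trimming, alignment or filters. The columns were taken as nuclear and cytoplasmic on the last letter of their names. All values above 0 (100%) were whole multiples of 1 read within 0.1 read, so whole reads were recovered.

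Sequences of 18 to 39 nt were matched exactly, on the sense strand, to GENCODE vM21 transcripts (GRCm38, the same assembly as mm10). Every matched sequence entered 1 gene entry, small RNAs first, and sequences in more than 10 genes were left out. Mitochondrial fragments were counted under their mitochondrial gene even where a nuclear gene also matched. Positions count from 1 at the 5′ end of the gene.

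Ratios are nuclear over cytoplasmic RPM with exact (Clopper-Pearson) 95% intervals from the reads, and log2 ratios use a pseudocount of 0.5 reads. TMM factors came from edgeR 4.0.16, and with 1 library a group no model was fitted and no p-value is given. The call rule was tested on simulated data. Named sequences were the most abundant per library of each gene with at least 100 reads, the 5 most abundant in each library and the 5 largest and 5 smallest ratios, of which those that carry a result are printed. The members and lists were chosen with earlier results of these data known. Alternatives covered scaling, shared sequences, length, 3′ removal, read minimum and fold. Stretches, groups of mt-Rnr1 first bases and the mt-Nd6 sequence were chosen after seeing the values.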

Additional observations from a re-analysis of the deposited data

Results flagged for a closer look

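Reads in antisense orientation to the 15 genes, with no sense match to any transcript, numbered 132 in the nuclear and 78 in the cytoplasmic library, where genes read backwards gave 0. They lay in 158 sequences, none with more than 5 reads, antisense to 14 of the genes. The 14 heavy-strand genes had 132 nuclear and 76 cytoplasmic antisense reads, a ratio of 1.77 (1.33 to 2.38), and together with the sense reads of mt-Nd6, which share their strand, 176 and 81 reads and a ratio of 2.22 (1.70 to 2.92).

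Sequences that matched a mitochondrial rRNA or mRNA only after removal of 1 to 3 nt at the 3′ end had 372 nuclear and 680 cytoplasmic reads, outside the comparisons above. The removed bases were A only in 67.7% of these nuclear and 56.5% of these cytoplasmic reads, and a single T in 10 and 74 reads.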

How the results depend on the processing

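The class ratios moved with the scaling: TMM factors gave 0.541 for rRNA and 0.382 for mRNA, the median of ratios 0.496 and 0.350, and the miRNA total 1.63 and 1.15. The median log2 ratio of all entries was 0.15, 0.02 and 1.74 under these scalings. Calls among all entries were 84.2% higher by RPM, and 57.4%, 53.5% and 97.2% under the 3 scalings. Without the most abundant sequence of each gene the rRNA ratio was 0.912, with 26 nt or more 1.13, and without start 516 of mt-Rnr1 (chosen after seeing the data) 1.03. The mRNA ratio was 0.743 without shared sequences and 0.514 without mt-Co1, the latter chosen after seeing the data. Counting distinct sequences gave 0.393 for rRNA and 0.263 for mRNA. This count was scaled to the distinct sequences of each library, 400087 nuclear and 169208 cytoplasmic, so it changes the scaling as well as the weight of abundant sequences.

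Genes called lower numbered 7 under the median of ratios and 7 with distinct sequences, which were scaled to the distinct sequences of each library. They numbered 1 under the miRNA total and 2 without the most abundant sequences. Without shared sequences or with 26 nt or more, where fewer genes were tested, they numbered 0. Genes called higher numbered 1, mt-Nd6, with no minimum of reads and with 3′ removal. Sequences called higher numbered 2 under TMM, 1 under the median of ratios, 17 under the miRNA total and 31 with no minimum, and those called lower 14 under the miRNA total and 71 with no minimum. The 5′ end share of mRNAs in the cytoplasmic library was 4.35% with distinct sequences and 3.52% without mt-Co3 (chosen after seeing the data). That of mt-Rnr2 was 1.70% (nuclear) and 2.35% (cytoplasmic) with distinct sequences. Other than fewer genes tested, the cause was not tested. Of 129 values of single genes, 83 stayed inside the interval, 46 did not, and 0 of those called changed direction. Without a call, mt-Rnr1, mt-Rnr2, mt-Co1, mt-Nd5, mt-Nd1 and mt-Nd2 turned under the miRNA total. The match to the nuclear genome was not run, since no genome sequence was used here. No paired analysis was possible because each group has 1 library.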

Other observations

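Of 10 junctions where a mitochondrial rRNA or mRNA gene directly adjoins a neighbour on its strand, 1 had fragments across it, that of mt-Rnr2 and mt-Tl1, with 1 nuclear and 2 cytoplasmic reads.

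Reads that matched only after removal of 3′ bases were common at a few ends of the large-subunit rRNA. Such matching does not tell added bases from a mismatch near the 3′ end, and this was not tested. At base 1161 of mt-Rnr2, 72 nuclear and 100 cytoplasmic reads had unmatched bases after it, beside 80 and 71 that ended there exactly. At base 1390 the values were 88 and 123 beside 179 and 196. The last bases of mt-Rnr1 followed by A had 0 nuclear and 7 cytoplasmic reads in 5 sequences. Among the 13 mRNAs the last bases of mt-Nd4 alone had such a read, 1 in the cytoplasmic library.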
